A study of Homo sapiens with 12 samples.

Results

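The integrated stress response and the amino acid transport it supports were followed through 36 listed genes in the human glioblastoma line U251 after its cells had received either carmofur, an inhibitor of the ceramide-degrading enzyme acid ceramidase, or DMSO (vehicle). The genes were listed by symbol from what is known of this response and of the unfolded protein response, without the serine synthesis enzymes and tRNA synthetases. All 36 were found among the 60107 gene identifiers of the count table. The list was chosen with earlier results of these data known. Shares of members set beside shares of all genes are therefore descriptions and not independent support. The 12 libraries carry the name U251P or U251T in their titles, and these are treated here as 2 lines. Each line had 3 vehicle and 3 carmofur libraries, and nothing further on how the lines differ is stated. According to the labels the cells were deprived of serum for 16 h and then held for 24 h in full medium with 10% FBS, 2.5 mM glutamine and 17.5 mM glucose that contained DMSO or carmofur. The study's description of its RNA sequencing places the drug in the serum-free hours as well. It also states a dose, which the labels do not give. The study's methods describe biological triplicates for its experiments in general, while the labels number the replicates without saying whether they were separate cultures, and the p-values measure the spread between these libraries.

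In this response, protein kinases that sense amino acid shortage, unfolded protein or other stress phosphorylate the initiation factor eIF2, which lowers general protein synthesis while the translation of the transcription factor ATF4 rises. ATF4, together with C/EBP proteins and ATF3, drives genes for amino acid import, amino acid synthesis, redox balance and, under lasting stress, cell death. XBP1 and its targets form another arm of the response to unfolded protein in the endoplasmic reticulum (ER). Because ATF4 is set largely by translation, its mRNA level is an incomplete measure of its activity. Fewer cells with a transcript and less transcript per cell cannot be told apart in RNA from whole cultures.

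Levels are given as CPM, a gene's read count per 1000000 gene counts of its library, and fold changes come from the quasi-likelihood test of edgeR with its own scaling. The test was run over all genes that passed a filter on low counts, and a gene was called at an adjusted p-value under 0.05. Total counts were 3295045 to 6350873 in the U251P libraries and 383633 to 2817379 in the U251T libraries, so that 3 counts, the level that a count of 0 allows, stood for 0.472 to 0.91 CPM in U251P and for 1.06 to 7.82 CPM in U251T. At least 10 counts were found for 34 to 35 of the 36 members in each U251P library and for 16 to 23 in each U251T library. The U251T libraries stood apart from the U251P libraries in more than depth. Pseudogenes held 10.8% to 12.4% of their counts against 0.272% to 0.307% in U251P, and genes of the mitochondrial genome held 0.354% to 0.881% against 19.5% to 26.2%. B2M, the light chain of MHC class I, was at 1544 to 1942 CPM in U251P and at 0.769 to 15.6 CPM in U251T. Of 12 listed glioblastoma markers, U251P had counts for 10 in each group. OLIG2 was at 0 in both of its groups, CHI3L1 in the vehicle libraries and GFAP in the carmofur libraries. U251T had counts for 8 in each group, with S100B, CHI3L1 and OLIG2 at 0 in both, SOX2 at 0 in the vehicle libraries and FABP7 at 0 in the carmofur libraries. VIM, an intermediate filament protein, was at 2516 to 3252 CPM in U251P and at 7046 to 13534 CPM in U251T. GFAP, a glial filament protein chosen here after its values were seen, reached 0.303 CPM at most in U251P and was at 20.9 to 83 CPM in U251T. Of the 9 glioblastoma markers tested between the lines in vehicle, 2 were higher in U251T and 6 lower, among them NES, a neural progenitor filament protein chosen here after its values were seen, with 376 to 459 CPM in U251P and 0 to 2.61 CPM in U251T. Of the 8 fibroblast markers, whose summed level was 118 to 145 CPM in U251P and 1987 to 2828 CPM in U251T, COL1A1 reached 7.9 CPM at most in U251P and 1282 to 1929 CPM in U251T. THY1 of the same list, also chosen after its values were seen, went the other way, with 99.2 to 124 CPM in U251P and a count of 0 in all 6 U251T libraries. Of the markers of microglia and leukocytes, at most 5.38 CPM in sum was counted in any library. The part of these differences in the results for U251T was not tested.

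Some members carry a known response element near their start, and since the list was drawn from known stress response genes, this is not independent of the choice. The C/EBP-ATF response element, the DNA element through which ATF4 acts with C/EBP partners, was searched by its core TGATGNAA on both strands, in windows of 250 bases before to 50 bases after each RefSeq transcription start (GRCh38.p14). At least 1 window was found for 33 of the 36 members, and NUPR1, SLC7A11 and PYCR1 had none. The core stood in a window of 9 of these 33 members (27.3%), against 4.46% of 27305 genes, and in 9 of the members' 51 windows (17.6%), against 3.62% of 35116 windows. The 9 members were ATF3, CEBPG, CHAC1, SLC3A2, SLC7A1, SLC1A4, SLC1A5, ASNS and HERPUD1. The ER stress response element, CCAAT and CCACG separated by 9 bases, stood in 1 member, XBP1, and in 0.0769% of all windows. The windows of 3 members with the core and that of XBP1 are shown 5′ to 3′ on the gene's strand, with the match in capitals, because these members represent synthesis (ASNS, chr7:97872359-97872658, minus strand), glutathione breakdown (CHAC1, chr15:40953221-40953520, plus strand), transcription (ATF3, chr1:212565157-212565456, plus strand) and ER protein quality (XBP1, chr22:28800520-28800819, minus strand).
ASNS: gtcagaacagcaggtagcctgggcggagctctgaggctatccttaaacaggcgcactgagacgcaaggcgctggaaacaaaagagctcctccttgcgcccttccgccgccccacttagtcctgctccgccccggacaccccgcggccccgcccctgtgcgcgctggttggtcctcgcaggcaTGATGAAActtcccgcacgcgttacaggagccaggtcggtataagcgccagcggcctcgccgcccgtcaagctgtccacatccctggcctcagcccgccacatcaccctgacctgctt
CHAC1: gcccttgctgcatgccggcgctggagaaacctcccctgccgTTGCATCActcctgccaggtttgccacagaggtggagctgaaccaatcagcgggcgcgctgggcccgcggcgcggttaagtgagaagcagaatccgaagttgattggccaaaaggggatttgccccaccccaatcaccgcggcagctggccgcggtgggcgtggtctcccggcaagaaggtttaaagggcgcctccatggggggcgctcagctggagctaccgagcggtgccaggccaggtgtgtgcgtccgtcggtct
ATF3: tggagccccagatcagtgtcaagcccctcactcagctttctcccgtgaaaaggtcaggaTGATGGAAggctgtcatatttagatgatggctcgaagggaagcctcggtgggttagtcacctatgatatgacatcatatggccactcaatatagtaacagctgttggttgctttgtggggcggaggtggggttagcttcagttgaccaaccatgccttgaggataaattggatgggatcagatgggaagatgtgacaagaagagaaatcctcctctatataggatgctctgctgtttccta
XBP1: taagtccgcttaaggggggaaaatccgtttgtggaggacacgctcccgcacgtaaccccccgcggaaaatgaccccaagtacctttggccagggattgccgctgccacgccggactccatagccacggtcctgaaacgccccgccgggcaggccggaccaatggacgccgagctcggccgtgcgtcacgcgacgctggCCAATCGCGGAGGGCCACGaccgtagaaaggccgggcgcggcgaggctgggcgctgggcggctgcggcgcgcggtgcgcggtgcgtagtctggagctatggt
The first base of the match lay 68 bases before the start in ASNS, 209 in CHAC1, 191 in ATF3 and 52 in XBP1, and in CHAC1 the core read on the other strand. A match is a description of these letters and not a measured binding site.

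The first comparison asked whether carmofur altered these genes in U251P. No member passed the test, but 30 of the 35 tested members were lower on average with carmofur and 5 were higher, and their median log2 fold change was -0.33 against 0.00 over all 11426 genes tested. Libraries of the same group differed widely: the stress effectors were high in vehicle replicates 2 and 3 and in carmofur replicate 3, and low in vehicle replicate 1 and carmofur replicates 1 and 2. CBS, which makes cystathionine from homocysteine, had a count of 0 in all 12 libraries and was not tested. Its near-identical copy CBSL was not found by symbol, so reads assigned to that copy, if any, were not counted here. The count of 0 is therefore not a measure of whether CBS was transcribed. Of all genes 0% were called in either direction by edgeR, and 402 genes, 11 of them members, had an unadjusted p-value under 0.05. DESeq2 also called 0 genes. Without the filter on low counts edgeR called 19 genes, 7 of them members, and all 7 were lower (ATF4, DDIT4, TRIB3, SESN2, CHAC1, STC2 and PCK2). In each of the 7 the vehicle and carmofur libraries overlapped. Without the filter DDIT4 had an edgeR adjusted p-value of 3.28e-14 despite this overlap, so these calls depend on the filter and are not taken as a fall. With the filter, each tested member had an edgeR adjusted p-value of 0.999.

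**Figure D1:**
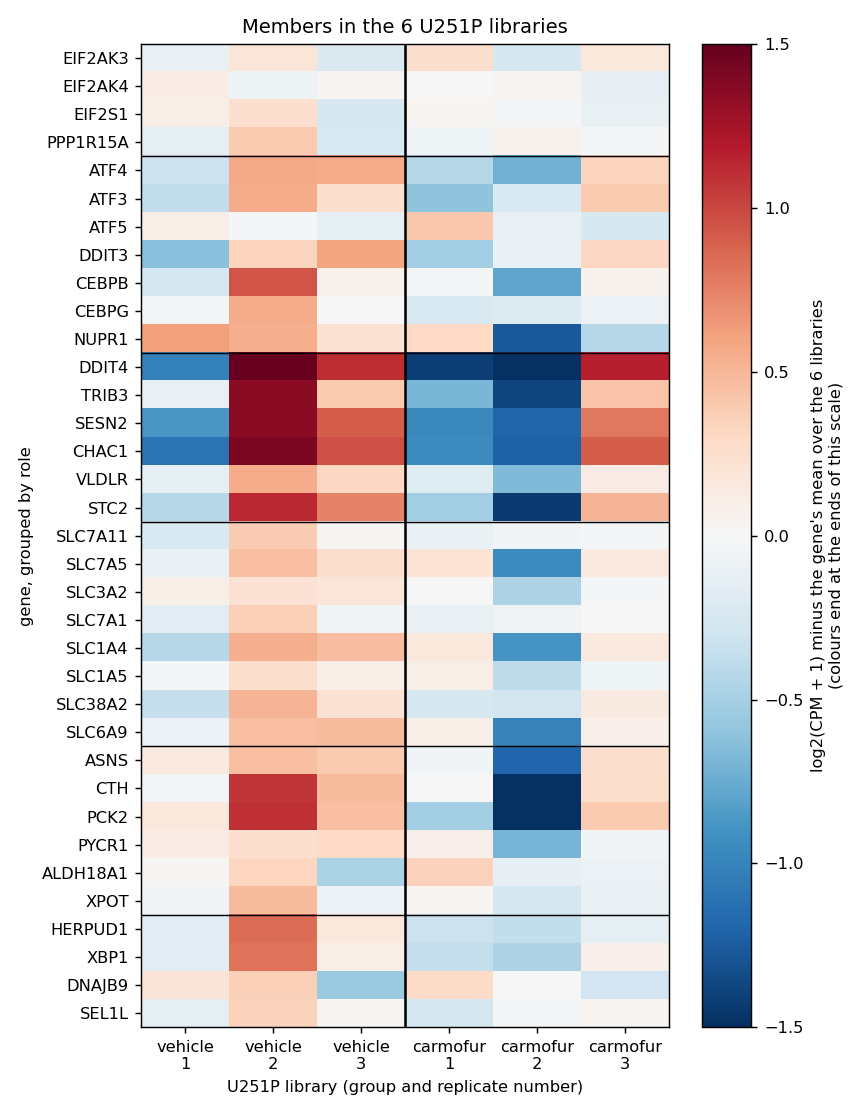
Level of each of the 35 detected members in the 6 U251P libraries (columns), as log2(CPM + 1) minus the gene's mean over these libraries, with members in rows grouped by role. Vehicle replicate 2 is high and carmofur replicate 2 low for most members, and for DDIT4, SESN2 and CHAC1 vehicle replicate 3 and carmofur replicate 3 are also high.

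DDIT4, CHAC1 and SESN2 varied the most of the members. DDIT4, an inhibitor of mTOR complex 1 that stress and hypoxia induce, was at 70.1, 483 and 308 CPM in the 3 vehicle libraries and at 52.9, 45.5 and 320 CPM in the carmofur libraries. The groups overlapped, since 1 vehicle library was among the low ones and 1 carmofur library among the high ones. The log2 fold change of DDIT4 was -1.03 ± 0.623 (SE, n = 3 per group). It was -2.51 without carmofur replicate 3 and -0.46 without vehicle replicate 2, and neither value passed the test.

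CHAC1, an enzyme that degrades glutathione, followed the same libraries, with 13.4, 81.6 and 60 CPM in vehicle and 15.1, 12.3 and 57.4 CPM in carmofur. SESN2, a sestrin that senses leucine and restrains mTOR complex 1, was at 25.7, 124 and 91.2 CPM in vehicle and at 24.2, 20.3 and 83.7 CPM in carmofur. The groups of both genes overlapped, and their log2 fold changes were -0.88 ± 0.532 for CHAC1 and -0.91 ± 0.484 for SESN2 (SE). STC2, a secreted glycoprotein, was at 58.8, 175 and 133 CPM in vehicle and at 55, 28.7 and 113 CPM in carmofur. TRIB3, a pseudokinase that binds ATF4 and restrains it, was at 30, 84.7 and 42.9 CPM in vehicle and at 19.8, 11.9 and 44.2 CPM in carmofur. For both, carmofur replicate 2 was the lowest of the 6 libraries and vehicle replicate 2 the highest, and the log2 fold changes were -0.89 ± 0.379 for STC2 and -1.04 ± 0.38 for TRIB3 (SE). VLDLR, a lipoprotein receptor that ATF4 induces under ER stress, was at 33.8, 54.9 and 46.2 CPM in vehicle and at 32.6, 23 and 40.5 CPM in carmofur. Its log2 fold change was -0.47 ± 0.201 (SE), nearer to 0 than those of the other effectors. Leaving out carmofur replicate 3 moved TRIB3 to -1.67, SESN2 to -1.81, CHAC1 to -1.87 and STC2 to -1.52, and leaving out vehicle replicate 2 moved SESN2 to -0.49, CHAC1 to -0.44 and TRIB3 to -0.56, all without a call.

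Among the transcription factors, ATF4, DDIT3 and ATF3 were lowest in libraries that were also low for the effectors. ATF4 was at 246, 454 and 453 CPM in vehicle and at 228, 185 and 388 CPM in carmofur, with a log2 fold change of -0.50 ± 0.241 (SE). Its groups overlapped. DDIT3, the death-related factor also called CHOP, was at 14, 28.2 and 33.8 CPM in vehicle and at 15.1, 20.5 and 27.7 CPM in carmofur. ATF3, a stress-induced repressor and partner of ATF4, was at 5.53, 11.5 and 9.12 CPM in vehicle and at 4.57, 6.22 and 10.1 CPM in carmofur. The groups overlapped for both of these factors, and the log2 fold changes were -0.26 ± 0.282 for DDIT3 and -0.31 ± 0.337 for ATF3 (SE). CEBPB, a C/EBP partner, ranged from 24.9 to 58 CPM in vehicle and from 16.8 to 30.9 CPM in carmofur. ATF5, a relative of ATF4, ranged from 33.6 to 39.9 CPM and from 31.1 to 49.4 CPM, and was highest in carmofur replicate 1 and lowest in carmofur replicate 3. NUPR1, a small stress-induced chromatin protein, was low throughout, with 3.23 to 4.54 CPM in vehicle and 0.504 to 3.46 CPM in carmofur.

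In 3 members the vehicle and carmofur libraries of U251P did not overlap, and in all 3 the carmofur libraries were lower. Over all genes tested, 8.54% did not overlap in either direction, and 3 of 35 members is near that share. CEBPG, the C/EBP partner that binds DNA with ATF4, was at 49, 74.1 and 49.8 CPM in vehicle and at 42.8, 43.8 and 47 CPM in carmofur, a log2 fold change of -0.33 ± 0.153 (SE). SLC3A2, the heavy chain that carries SLC7A5 and SLC7A11 to the membrane, was at 222, 243 and 237 CPM in vehicle and at 209, 151 and 204 CPM in carmofur (-0.29 ± 0.116). PYCR1, a mitochondrial enzyme of proline synthesis, was at 75.6, 84.1 and 86.6 CPM in vehicle and at 74, 42.8 and 68.3 CPM in carmofur (-0.39 ± 0.158). The gaps were small, and for SLC3A2 and PYCR1 carmofur replicate 2 lay far below the other carmofur libraries.

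All 8 amino acid transporters had a lower average with carmofur in U251P, with a median of -0.27 on the log2 scale and 0 called. SLC7A11, the cystine importer, was at 228, 346 and 269 CPM in vehicle and at 248, 260 and 262 CPM in carmofur, so that the carmofur libraries lay within the range of the vehicle libraries. SLC7A5, the importer of large neutral amino acids, was at 219, 322 and 280 CPM in vehicle and at 272, 121 and 261 CPM in carmofur, with only carmofur replicate 2 outside the vehicle range. SLC38A2, an importer of small neutral amino acids that is induced by their shortage, was at 215, 388 and 316 CPM in vehicle and at 231, 226 and 299 CPM in carmofur. The carmofur libraries of SLC38A2 lay within the vehicle range. SLC7A1, the importer of cationic amino acids, ranged from 145 to 208 CPM in vehicle and from 150 to 163 CPM in carmofur. The neutral amino acid exchangers SLC1A5 and SLC1A4 ranged from 118 to 185 CPM and from 13.9 to 39.1 CPM over the 6 libraries, and SLC6A9, a glycine transporter, from 5.21 to 16.3 CPM. In SLC7A5, SLC1A5, SLC1A4 and SLC6A9, carmofur replicate 2 was the lowest library.

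Carmofur replicate 2 was also the lowest library for ASNS, PCK2, CTH, PYCR1 and XPOT. ASNS, which makes asparagine, was at 68.5, 84.4 and 81.1 CPM in vehicle and at 59.8, 26.5 and 73.6 CPM in carmofur, a log2 fold change of -0.54 ± 0.239 (SE). PCK2, a mitochondrial enzyme that makes phosphoenolpyruvate, was at 19.2, 37.6 and 23.7 CPM in vehicle and at 11.7, 5.04 and 22.7 CPM in carmofur (-1.04 ± 0.361). Both groups overlapped, and ASNS moved to -0.22 and PCK2 to -0.64 without carmofur replicate 2. CTH, which makes cysteine from cystathionine, ranged from 9.68 to 21.9 CPM in vehicle and from 2.18 to 12.1 CPM in carmofur. ALDH18A1, which opens proline synthesis, ranged from 28.1 to 50.5 CPM over the 6 libraries, and XPOT, the exporter of tRNA from the nucleus, from 47 to 78.6 CPM.

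Of the ER protein quality members, HERPUD1, which acts in the degradation of ER proteins, was at 34, 69.2 and 42.6 CPM in vehicle and at 30.2, 29.4 and 34.3 CPM in carmofur (-0.59 ± 0.204 on the log2 scale, SE). XBP1, the transcription factor of the IRE1 arm, was at 69.3, 137 and 82.5 CPM in vehicle and at 60, 55.8 and 82 CPM in carmofur (-0.51 ± 0.203). In both, vehicle replicate 2 stood above the other libraries, and without it the values were -0.28 and -0.20. DNAJB9, an ER co-chaperone, ranged from 3.23 to 6.98 CPM and SEL1L, a subunit of the ER degradation complex, from 52.3 to 80.1 CPM over the 6 libraries. EIF2AK4, the amino acid sensing kinase GCN2, was at 92.4, 81 and 87 CPM in vehicle and at 85.5, 87.5 and 78.2 CPM in carmofur (-0.03 ± 0.109), and it was the member with the smallest spread within groups. EIF2AK3, the ER stress kinase PERK, ranged from 8.4 to 12.3 CPM, EIF2S1, the eIF2 subunit that is phosphorylated, from 113 to 160 CPM, and PPP1R15A, which recruits the phosphatase that reverses this, from 33.2 to 51.6 CPM.

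The spread within the groups of U251P was described with the SD of log2(CPM + 1) pooled over vehicle and carmofur. It was 1.50 for DDIT4, 1.26 for CHAC1, 1.13 for SESN2, 0.89 for STC2, 0.88 for CTH, 0.83 for TRIB3 and 0.78 for PCK2, against a median of 0.21 over all genes tested. Of the 35 members, 21 were above the 90th percentile of the genes of like level. DDIT4, SESN2 and CHAC1 lay at the top percentile (100) of all genes, and EIF2AK4, at 0.09, lay at percentile 7.84. Vehicle replicate 2 was the highest vehicle library for 29 of the 35 members, against 37.3% of all genes, and vehicle replicate 1 the lowest for 26, against 29.2%. Carmofur replicate 2 was the lowest carmofur library for 24 members, against 40.8% of all genes, and carmofur replicate 3 the highest for 20, against 30.9%. Of the 2 libraries at the ends of the depth range, vehicle replicate 2 had 3295045 counts and carmofur replicate 1 had 6350873. The summed level of 10 proliferation genes was 5179 to 5640 CPM in vehicle and 5104 to 5385 CPM in carmofur. In U251T the spread of the members was closer to that of other genes, and 3 of 17 were above the 90th percentile of genes of like level.

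**Figure D2:**
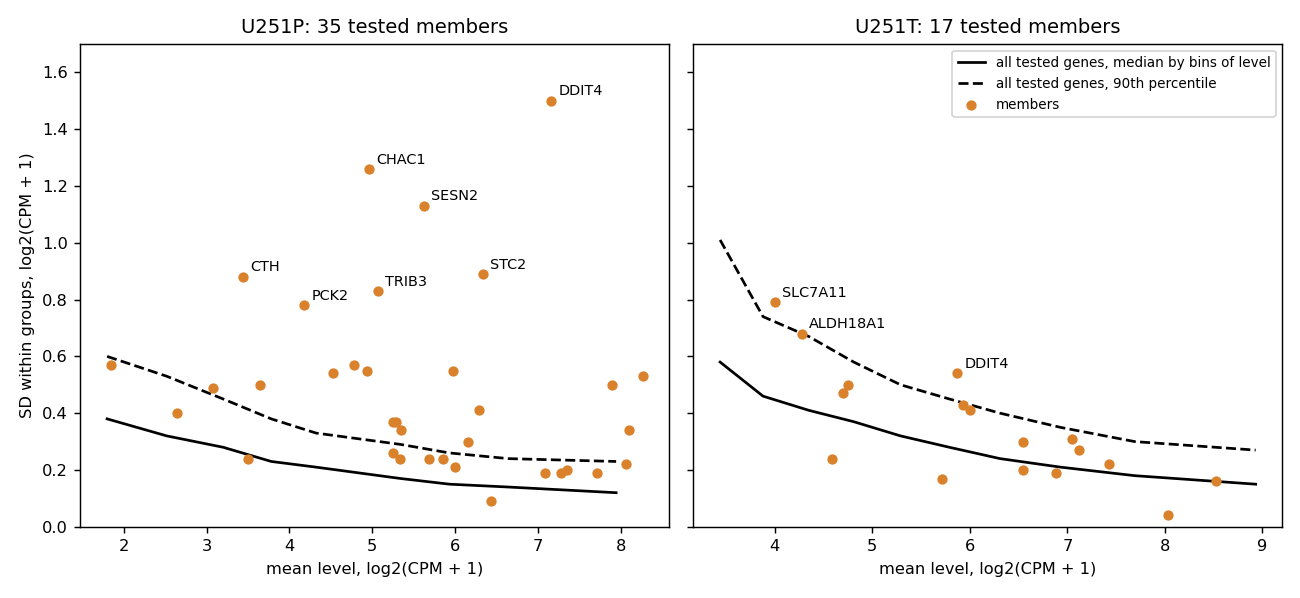
SD within groups of log2(CPM + 1) against the mean level for the members (points) in U251P (left) and U251T (right), with the median (solid line) and the 90th percentile (dashed line) of all tested genes by bins of level. In U251P, DDIT4, CHAC1 and SESN2 lie between 1.13 and 1.50, far above the dashed line, and EIF2AK4 at 0.09 lies below the solid line.

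The second comparison was the same contrast in U251T. Of the 17 members that passed the filter, 6 rose with carmofur and 0 fell. These were the factors ATF3 and DDIT3, the kinase EIF2AK4 and the effectors DDIT4, SESN2 and VLDLR, with rises of 2.12-fold to 4.16-fold, and no vehicle library reached the lowest carmofur library in any of them. None of the tested transporters, enzymes or ER protein quality members passed in this main test, but some gained a call under alternatives, as given below. Over all 7204 genes tested, 8.88% rose and 8.2% fell, so that 6 of 17 members stood beside 640 of 7204 genes. The median log2 fold change was 0.46 over the 17 members and 0.01 over all genes, with 13 members above 0 and 4 below. The other 19 members did not pass the filter, ATF4 among them. At totals that were closer between the lines, ATF4 had 9 counts among 2817379 in vehicle replicate 2 of U251T and 1495 among 3295045 in vehicle replicate 2 of U251P.

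**Figure D3:**
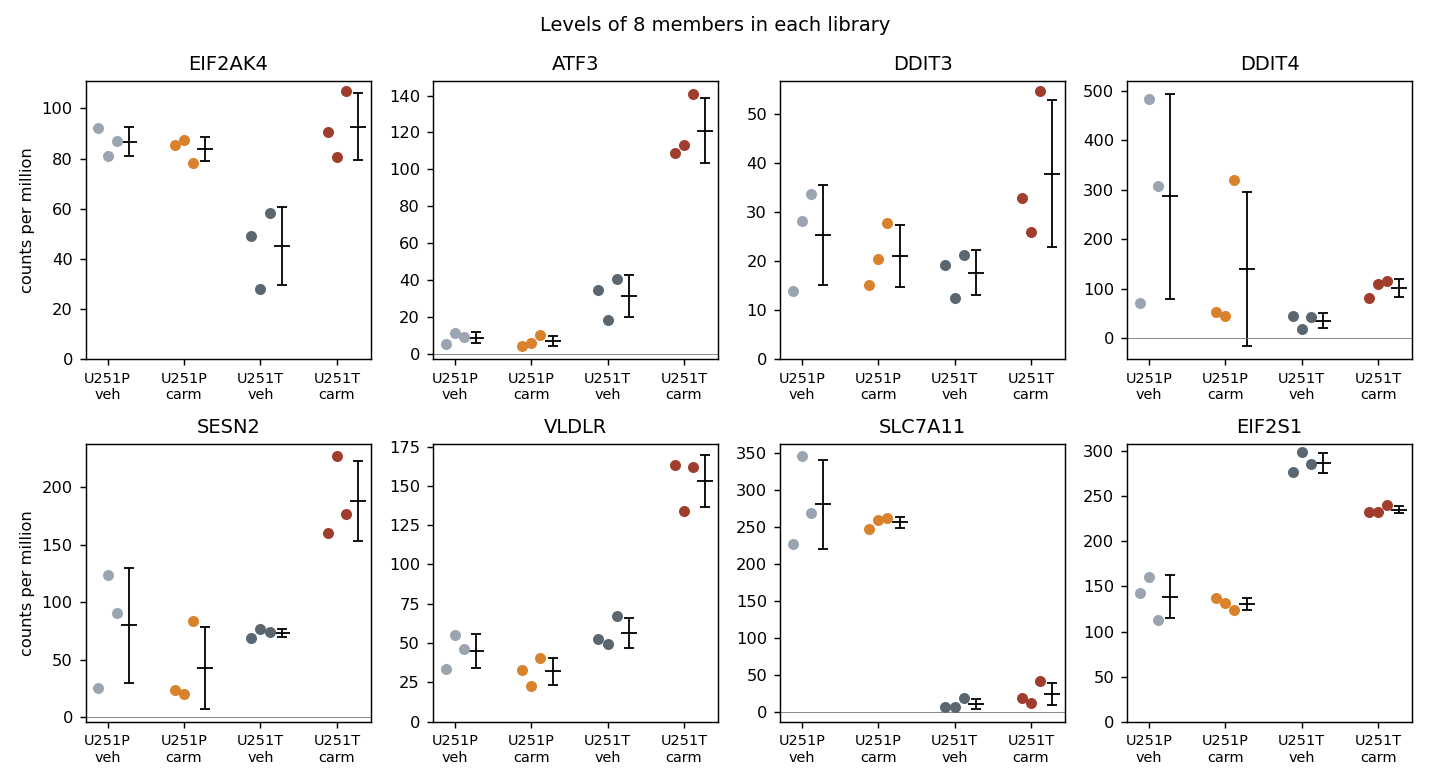
Level in CPM of 8 members in each library (points) of the vehicle and carmofur groups of U251P and U251T, with the mean and SD of each group of 3 (bars). In U251T the carmofur libraries of EIF2AK4, ATF3, DDIT3, DDIT4, SESN2 and VLDLR lie above all vehicle libraries, and those of EIF2S1 lie below them.

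ATF3 was at 34.6, 18.5 and 40.6 CPM in the vehicle libraries of U251T and at 109, 113 and 141 CPM in the carmofur libraries. Every carmofur library was above every vehicle library. Its log2 fold change was 2.06 ± 0.254 (SE, adjusted p = 2.29e-05 by edgeR), the largest among the members. DDIT3 was at 19.2, 12.4 and 21.2 CPM in vehicle and at 33, 26 and 54.7 CPM in carmofur, which rests on 12 to 35 counts per library. Its groups did not overlap but lay close, and the log2 fold change was 1.08 ± 0.339 (SE, adjusted p = 0.0344 by edgeR). The call of DDIT3 was lost with DESeq2 (adjusted p = 0.11), with all 12 libraries in one edgeR fit (0.0723), and without vehicle replicate 1 (0.0586), vehicle replicate 2 (0.149), carmofur replicate 1 (0.0751) or carmofur replicate 3 (0.146). CEBPG, the C/EBP partner, was at 65.3, 46.9 and 54.8 CPM in vehicle and at 47.4, 48.2 and 46.9 CPM in carmofur and did not pass the test. CEBPB did not pass the filter, with 8.46, 15.6 and 14.1 CPM in vehicle and 4.12, 6.49 and 5.21 CPM in carmofur, from 2 to 44 counts per library. Its carmofur libraries lay below its vehicle libraries, and the difference was not tested. The remaining factors had few reads, with 0 to 9 counts per library for ATF4, 0 to 3 for ATF5 and 0 to 1 for NUPR1.

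The effectors DDIT4, SESN2 and VLDLR rose together. DDIT4 was at 45.4, 18.1 and 42.4 CPM in vehicle and at 80.4, 109 and 115 CPM in carmofur, with no overlap and a log2 fold change of 1.62 ± 0.289 (SE, adjusted p = 0.000732 by edgeR). With all 12 libraries in one fit the adjusted p-value of DDIT4 was 0.102, and the spread of DDIT4 in U251P enters that fit. SESN2 was at 69.2, 76.7 and 74.2 CPM in vehicle and at 160, 227 and 177 CPM in carmofur, with vehicle libraries that lay close together and a log2 fold change of 1.35 ± 0.185 (SE, adjusted p = 5.69e-05 by edgeR). VLDLR was at 52.3, 49.3 and 67.1 CPM in vehicle and at 163, 134 and 162 CPM in carmofur, again without overlap, and its log2 fold change was 1.47 ± 0.186 (SE, adjusted p = 2.77e-05 by edgeR). The other effectors could not be followed, since TRIB3 was counted only in carmofur replicate 3, with 2 counts, CHAC1 had 0 to 3 counts per library and STC2 2 to 11.

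EIF2AK4 was at 49.2, 28 and 58.3 CPM in vehicle and at 90.7, 80.7 and 107 CPM in carmofur. Its groups did not overlap, and the log2 fold change was 1.11 ± 0.248 (SE, adjusted p = 0.00429 by edgeR), or 0.79 without vehicle replicate 2. EIF2AK3 did not pass the test, with 18.8 to 26.9 CPM in vehicle and 21.3 to 28.7 CPM in carmofur. EIF2S1 was at 277, 299 and 286 CPM in vehicle and at 233, 233 and 240 CPM in carmofur. The carmofur libraries of EIF2S1 were lower than all vehicle libraries by little, and the log2 fold change of -0.30 ± 0.137 (SE, adjusted p = 0.146 by edgeR) missed the threshold. It passed under 1 of 14 alternatives. PPP1R15A had 0 to 1 counts per library.

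Among the 8 transporters 2 could be tested in U251T. SLC7A11 was at 7.69, 6.74 and 19.4 CPM in vehicle and at 19.6, 13 and 41.7 CPM in carmofur, from 10 to 19 counts per library. The groups overlapped, and the log2 fold change of 1.19 ± 0.483 (SE, adjusted p = 0.1 by edgeR) did not pass the test. It passed under 3 of 14 alternatives, among them without vehicle replicate 3 (0.0362) and without carmofur replicate 2 (0.0414). SLC38A2 was at 301, 400 and 329 CPM in vehicle and at 374, 429 and 383 CPM in carmofur, with overlapping groups and an adjusted p-value of 0.443 by edgeR. The other 6 transporters had few reads: SLC3A2 had 2 to 22 counts per library, SLC1A4 1 to 37, and SLC7A5, SLC7A1, SLC1A5 and SLC6A9 at most 3 each.

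Of the 7 enzyme and tRNA export members only XPOT and ALDH18A1 were tested in U251T, and neither passed. All 4 ER protein quality members were tested, and none passed in the main test. XPOT was at 181, 142 and 159 CPM in vehicle and at 139, 135 and 91.2 CPM in carmofur, and its groups did not overlap (adjusted p = 0.192 by edgeR). ALDH18A1 ranged from 7.07 to 28.7 CPM over the 6 libraries. ASNS, PCK2, CTH, PYCR1 and CBS did not pass the filter and were not tested. ASNS was at 11.5, 8.87 and 14.1 CPM in vehicle and at 7.22, 8.35 and 7.82 CPM in carmofur, from 3 to 25 counts per library. The carmofur libraries of ASNS lay below its vehicle libraries. PCK2 ranged from 4.64 to 9.58 CPM, while CTH had at most 3 counts and PYCR1 at most 1. SEL1L was at 144, 129 and 166 CPM in vehicle and at 177, 187 and 245 CPM in carmofur, without overlap, and its log2 fold change of 0.46 ± 0.165 (SE, adjusted p = 0.0625 by edgeR) came closest to the threshold. XBP1 was at 144, 90.2 and 106 CPM in vehicle and at 185, 126 and 162 CPM in carmofur, with overlapping groups (log2 fold change 0.47 ± 0.194, SE, adjusted p = 0.109 by edgeR). SEL1L and XBP1 each gained a call under 2 of 14 alternatives. HERPUD1, at 74.2 to 115 CPM, and DNAJB9, at 16.3 to 37.1 CPM, had vehicle and carmofur libraries that overlapped. Vehicle replicate 2, the deepest U251T library with 2817379 counts, was the lowest vehicle library for 13 of the 17 members, against 43.8% of all genes, and the part of depth in this was not tested. In all, 9 of the 17 members did not overlap between the groups, 7 of them higher with carmofur and 2 lower, beside 32.3% of all genes.

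Other genes of the same pathways gave a mixed picture in U251T. Of 20 further ATF4 and CHOP targets 10 were tested, of which 6 rose and 1 fell, and the median was 0.73 on the log2 scale. CDKN1A, an inhibitor of the cell cycle that p53 also controls, rose by 2.16 ± 0.234 on the log2 scale, and NDRG1, which stress and hypoxia induce, rose by 1.92 ± 0.288 (SE). TXNIP, an inhibitor of thioredoxin and of glucose uptake, rose by 1.82 ± 0.3 and GADD45A, a DNA damage response gene, by 0.68 ± 0.165 (SE). Adjusted p-values by edgeR were 4.96e-06 for CDKN1A, 0.000131 for NDRG1, 0.000326 for TXNIP and 0.00713 for GADD45A. Of 13 tested ER chaperones, 0 rose, 10 were not called and 3 fell, namely HSP90B1 (-0.70 ± 0.118), PDIA4 (-0.57 ± 0.156) and HSPA5 (-0.46 ± 0.135 on the log2 scale, SE), the last being the main chaperone of the ER lumen. Of 13 tested genes of ER sensing and degradation, EDEM1 (1.15 ± 0.246) and OS9 (0.90 ± 0.275) rose and VCP (-0.40 ± 0.124) fell. Of 13 tested genes of serine synthesis and tRNA charging, ALDH1L2 rose (0.72 ± 0.16) and GARS1 fell (-0.59 ± 0.172). Of the other lists, 0 of 11 tested genes of the eIF2 and eIF2B machinery, 0 of 4 other amino acid transporters and 0 of 4 NRF2 targets passed.

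In U251P none of these 7 lists had a called gene. The largest medians were -0.41 for the 18 genes of serine synthesis and tRNA charging, of which 18 had a lower average with carmofur, and -0.21 for 18 further ATF4 and CHOP targets, of which 17 had. The 15 ER chaperones had a median of -0.06 and the 15 genes of the eIF2 and eIF2B machinery one of -0.01.

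Proliferation moved with treatment in U251T. All 7 tested proliferation genes fell with carmofur, with a median of -1.93 on the log2 scale, and their summed level was 2799 to 3012 CPM in vehicle and 755 to 945 CPM in carmofur. Of the 5 tested glioblastoma markers 2 rose and 2 fell, VIM among the latter, and of the 5 tested fibroblast markers 2 rose, COL1A1 and COL3A1. The summed level of the fibroblast markers was 1987 to 2298 CPM in vehicle and 2620 to 2828 CPM in carmofur. The part of these changes in the results for the members was not tested.

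The third comparison asked whether the effect of carmofur differed between the lines, by the interaction of line and treatment over all 12 libraries. The carmofur effect was higher in U251T than in U251P for 5 of the 35 tested members and lower for 0, against 1.8% and 2.49% of 13070 genes. The 5 were VLDLR, ATF3, EIF2AK4, SESN2 and DDIT4. This comparison uses the same libraries as the 2 within-line comparisons, and is not a further sample of either. VLDLR differed by 1.87 ± 0.28 on the log2 scale (SE, adjusted p = 2.21e-05 by edgeR), from -0.47 in U251P and 1.47 in U251T. ATF3 differed by 2.31 ± 0.398 (adjusted p = 0.000183 by edgeR), from -0.31 and 2.06, and EIF2AK4 by 1.09 ± 0.258 (adjusted p = 0.00813 by edgeR), from -0.03 and 1.11. SESN2 differed by 2.19 ± 0.524 (adjusted p = 0.00905 by edgeR) and DDIT4 by 2.60 ± 0.754 (adjusted p = 0.0399 by edgeR), both with the wide spread of U251P in the error. The values within each line come from separate fits and do not add up exactly. For ATF3 and VLDLR the call held under every alternative that was run. DDIT4 lost it under 11 of 19 alternatives, DESeq2 among them (adjusted p = 0.217), and SESN2 lost it with DESeq2 (0.122). EIF2AK4 lost it without vehicle replicate 2 of U251T (adjusted p = 0.0869 by edgeR). Leaving out carmofur replicate 3 of U251P moved DDIT4 to 4.09, and the count of called members to 8, while leaving out vehicle replicate 2 of U251T moved that count to 3. DDIT3 differed by 1.26 ± 0.442 (adjusted p = 0.114 by edgeR) and did not pass. Of the pathway lists, CDKN1A, NDRG1, TXNIP and KLHL24 among 18 further targets also had a higher effect in U251T. So had 2 of 9 NRF2 targets, 1 of 15 genes of ER sensing and degradation and 1 of 18 genes of serine synthesis and tRNA charging. The 15 ER chaperones, the 15 genes of the eIF2 and eIF2B machinery and the 9 other transporters had 0 calls. Of 10 proliferation genes, 8 had a lower effect in U251T.

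**Figure D4:**
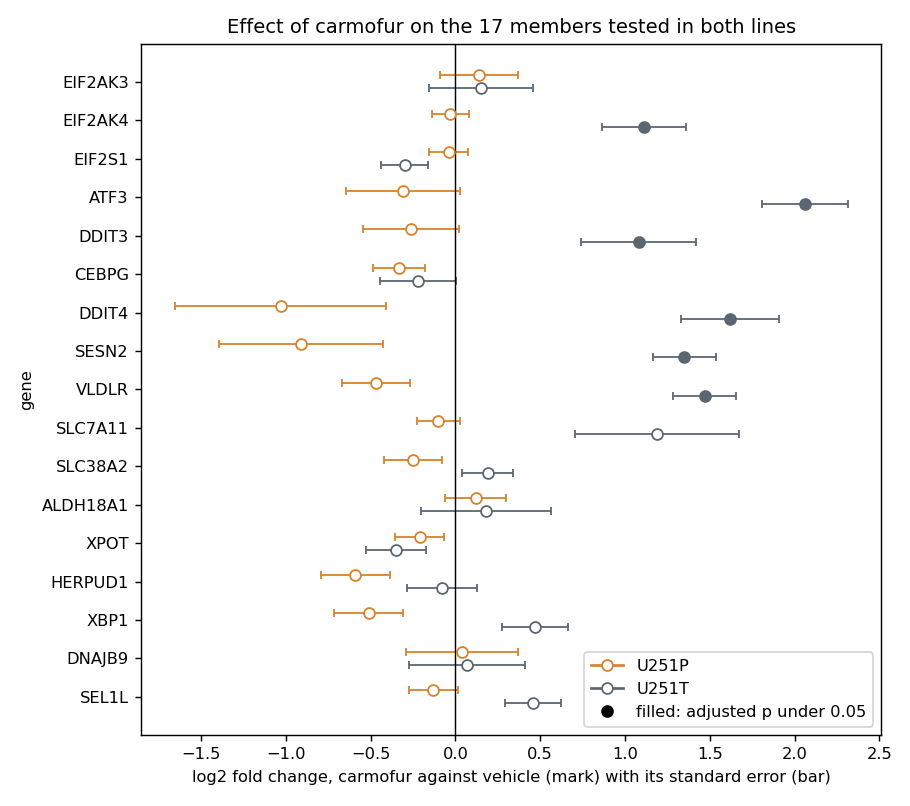
Log2 fold change of carmofur against vehicle (marks) with its standard error (bars) for the 17 members tested in both lines, in U251P and in U251T. Filled marks, which passed an adjusted p-value of 0.05, occur for 6 members in U251T and for 0 in U251P, and for DDIT4 the estimates are -1.03 in U251P and 1.62 in U251T.

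The lines were compared in vehicle and again in carmofur, in libraries that do not overlap. Most genes differed, with 39.3% of 12047 higher and 47.6% lower in U251T in vehicle, and 36.5% higher and 49.7% lower of 11667 in carmofur, and the line and the composition of its libraries cannot be told apart. Among the members, 7 of 34 tested were higher and 22 lower in U251T in vehicle, and 11 of 33 were higher and 19 lower in carmofur. Many of the lower members were tested only because U251P had reads for them. Among the 16 members with at least 10 counts in every vehicle library, 5 were higher and 6 lower, and among the 17 in carmofur 7 were higher and 5 lower. Under that filter the median log2 difference of all genes was 0.01 in vehicle and -0.02 in carmofur. The percentages of all genes given above belong to the main filter, so these counts do not tell whether the members differed from other genes. The median log2 difference of all genes was -0.33 in vehicle and -0.56 in carmofur with the scaling used, -0.12 and 0.24 with DESeq2, and differences of the members are to be read against it.

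**Figure D5:**
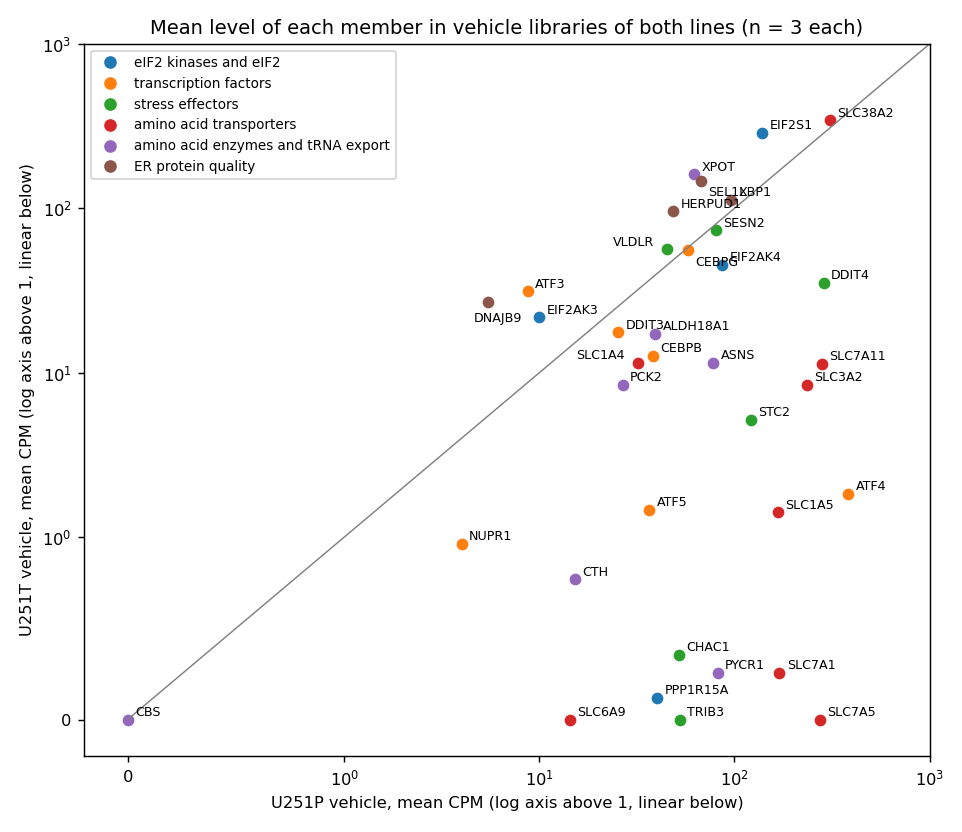
Mean CPM of each of the 36 members in the 3 vehicle libraries of U251P (horizontal) and of U251T (vertical), on axes that are logarithmic above 1 and linear below, with colours for roles and a line of equal level. Most transporters lie far below the line, with SLC7A5 at 0 in U251T, whereas SLC38A2 lies near it and the ER protein quality members lie on or above it.

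ATF4 and several transporters had many reads in U251P and few in U251T. ATF4 was at 246 to 454 CPM in U251P vehicle and at 0 to 3.19 CPM in U251T vehicle. SLC7A5 was at 219 to 322 CPM in U251P vehicle and had a count of 0 in the 3 U251T vehicle libraries, which allows up to 1.06 to 5.3 CPM. SLC7A1, at 145 to 208 CPM, and SLC1A5, at 152 to 185 CPM in U251P vehicle, had at most 2 counts in any U251T vehicle library. These members, PYCR1, TRIB3 and CHAC1 were thus near or at 0 in a line in which SLC38A2 was at 301 to 400 CPM and SESN2 at 69.2 to 76.7 CPM. SLC7A11 had a log2 difference of -5.00 ± 0.242 in vehicle and -3.88 ± 0.224 in carmofur (SE), and DDIT4 one of -3.21 ± 0.414 in vehicle. The difference in DDIT4 in carmofur was -0.72 ± 0.287 (adjusted p = 0.0158 by edgeR), and it lost its call under 8 alternatives and turned to 0.74 without carmofur replicate 3 of U251P.

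The 4 ER protein quality members had the opposite sign with the main filter. In vehicle 3 of the 4 were called. XBP1, at 69.3 to 137 CPM in U251P vehicle and at 90.2 to 144 CPM in U251T vehicle, was not. In carmofur all 4 were called. DNAJB9 was higher in U251T by 2.15 ± 0.344 in vehicle and by 2.01 ± 0.341 in carmofur on the log2 scale (SE). SEL1L was higher by 1.07 ± 0.155 and 1.47 ± 0.165, and HERPUD1 by 0.91 ± 0.2 and 1.24 ± 0.194. XPOT was higher by 1.34 ± 0.157 and 1.03 ± 0.173, and EIF2S1 by 1.03 ± 0.141 and 0.58 ± 0.154. Among genes with at least 10 counts in every library, where the median of all genes was 0.01 in vehicle and -0.02 in carmofur, these differences were smaller. In vehicle they were 1.52 for DNAJB9, 0.43 for SEL1L, 0.70 for XPOT and 0.39 for EIF2S1, and HERPUD1 at 0.27 missed the threshold. In carmofur they were 1.34 for DNAJB9, 0.81 for SEL1L, 0.57 for HERPUD1 and 0.36 for XPOT, and EIF2S1 turned to -0.08 without a call. ATF3 was higher in U251T by 1.69 ± 0.318 in vehicle and by 3.88 ± 0.233 in carmofur. EIF2AK4 was lower in U251T in vehicle, with a log2 difference of -1.12 ± 0.198, and in carmofur the difference of -0.14 ± 0.174 did not pass the test, although among genes with at least 10 counts in every library it was -0.82 and did (adjusted p = 4.02e-05 by edgeR). SESN2 and VLDLR did not pass in vehicle, and in carmofur they were higher in U251T by 1.94 ± 0.225 and 2.00 ± 0.18.

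Reads of neighbouring genes bear on some of these values. A gene on the same strand overlaps 8 members and a gene on the opposite strand 18 members in GENCODE release 29, and no source says if reads were assigned by strand. Among the members that rose in U251T, DDIT3 overlaps MARS and MBD6, DDIT4 overlaps DDIT4-AS1, EIF2AK4 overlaps H3F3AP1 and VLDLR overlaps VLDLR-AS1 on the opposite strand. VLDLR-AS1 had 3 to 41 counts in the U251P libraries and 0 in each U251T library. The pseudogenes of ATF4 and SLC7A5 that were looked up had at most 2 counts in any library.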

How the data were processed

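RNA of whole cell cultures was made into 3′ libraries with the QuantSeq FWD kit, which reads transcript ends, and counts are therefore not scaled by length. The authors trimmed, mapped and counted the reads in the BlueBee pipeline of Lexogen, and the deposited values are raw whole-number counts per Ensembl gene identifier. The build is hg38 per the labels. The annotation release, the use of strand and the treatment of PCR copies are not given in the sources used here.

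Each of the 12 libraries was placed in its group by its title, with 3 libraries in each of 4 groups. Symbols were taken from a gene name table (56104 of 60107 identifiers matched) and positions from GENCODE release 29. Genes were tested in edgeR (version 4.0.16, R version 4.3.3) by quasi-likelihood after TMM scaling and filterByExpr, with p-values adjusted over all genes tested by Benjamini-Hochberg and called under 0.05. Each SE was derived from this test, as the absolute log2 fold change divided by the square root of its F statistic. Carmofur was compared with vehicle in the 6 libraries of a line, the lines in the 6 libraries of a treatment, and the interaction in all 12. An exact permutation test of 3 libraries against 3 does not reach below a two-sided p-value of 0.1, and none was used.

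The alternatives were DESeq2 (version 1.42.0), upper-quartile scaling, scaling by the total of protein-coding genes, no filter, a minimum of 10 counts in each library, a block for the replicate number, all 12 libraries in one fit, a threshold of 0.1, and each library left out. The steps were also run on simulated counts in which every gene had the same dispersion. That simulation lacked the differences in spread between genes seen in these data, and does not bear on members with a wide spread. Any member could be named, and of each other list up to 4 called genes per comparison by p-value, the markers with the highest CPM and genes that overlap or copy a member. The members and lists were chosen with earlier results of these data known. The labels do not say whether same-numbered libraries belong together, and the main test did not pair them. The correlations of same-numbered deviations were 0.22, -0.03 and 0.28 in U251P and 0.08, 0.33 and 0.07 in U251T. Those of different-numbered libraries were -0.29 to 0.09 in U251P and -0.18 to 0.10 in U251T. The highest value in each line was thus a same-numbered one. An effect shared by replicate number entered only the alternative with a block, which changed the number of calls, and not the main test. Every pair of replicates differed beyond sampling noise (chi-square per degree of freedom 1.65 to 10.6). Figures were made with matplotlib in Python (version 3.11.15).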

Additional observations from a re-analysis of the deposited data

Results flagged for a closer look

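The effect of carmofur differed between the lines for 5 members by the interaction of line and treatment in edgeR. The carmofur effect in U251T minus that in U251P was 2.31 for ATF3, 1.87 for VLDLR, 1.09 for EIF2AK4, 2.19 for SESN2 and 2.60 for DDIT4 on the log2 scale. In each of the 5, all 3 carmofur libraries of U251T were above all 3 vehicle libraries, while the groups of U251P overlapped. Over all genes tested, the groups did not overlap in either direction for 32.3% in U251T and 8.54% in U251P. The 5 were picked by a test on these same libraries, so this description adds no support to the calls. The pseudogene, mitochondrial and marker levels given above differed between the lines in all libraries, and their part in these differences was not tested. Groups of 3 libraries are too small for a check of single libraries against the rest of their group.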

How the results depend on the processing

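For the 53 fold changes given for members, 772 values were obtained under the alternatives, of which 718 had the same sign and the same side of the threshold, 29 lost a call, 20 gained one and 5 turned in sign. In U251P, leaving out a library moved EIF2AK4 between -0.08 and 0.01 and DDIT3 between -0.57 and 0.07. In carmofur, the line difference of EIF2S1 turned to -0.08 among genes with at least 10 counts in every library, and that of DDIT4 ranged from -1.15 to 0.74 when a library was left out.

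Without the filter on low counts, 19 genes and 7 members were called for carmofur in U251P, against 0 and 0, and 10 members for the difference between lines, against 5. With at least 10 counts in every library, fewer genes were tested, and 11 members and 3737 genes were called between the lines in vehicle and 12 members and 3348 genes in carmofur. With the replicate number as a block, 1 gene was called in U251P, and 10 members (9 higher, 1 lower) and 2079 genes in U251T. The same block gave 8 members and 1152 genes for the difference between lines. Leaving out each library gave 0 to 1 genes in U251P, and 3 to 8 members and 366 to 719 genes for the difference between lines. Apart from the construction of the filters, the cause of these shifts was not tested. The other counts of called members and genes stayed within 1.5 times their value. In U251T, with 383633 to 2817379 counts per library, 19 members did not pass the filter, and 3 libraries per group limit the precision of every value.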
